A study of Homo sapiens with 4 samples.

Results

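The clustered protocadherins are cell-adhesion genes that lie side by side on chromosome 5 in an alpha, a beta and a gamma cluster. All rows of the deposited gene table on that chromosome whose symbol begins with PCDHA, PCDHB or PCDHG were taken, in order of their start position. This gave 57 of 25690 rows, of which 15 belong to the alpha cluster, 19 to the beta cluster and 23 to the gamma cluster. The clusters were selected on the difference in these counts between the WT and the knockout-labelled libraries. Every difference between genotypes given here for a member is therefore a description, and its call is not independent evidence.

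PolyA-selected RNA was sequenced from H9, a human embryonic stem cell line, at day 7, in cells that the series describes as non-neural ectoderm, the early tissue that forms epidermis and the sensory placodes. Wild-type (WT) H9 cells gave 2 libraries, and 2 more carry the genotype label TFAP2A knockout, a targeted loss of an AP-2 transcription factor of the ectoderm. No treatment, clone, guide or culture protocol is given in the sources used here, and the titles of these knockout samples read TFAP2C in place of TFAP2A. The labels do not say that libraries came from separate cultures, so errors cover the spread between libraries, which may be technical. Total counts ranged from 17838204 to 21797850 per library. Levels are given in CPM, which divides counts by the scaled library total. A count of 0 allows up to 3 counts, which is 0.137 to 0.170 CPM here. TFAP2A transcript remained in the knockout-labelled libraries, at 133 and 120.5 CPM against 171 and 197 CPM in WT, so that gene-level counts check the label only in part.

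In the alpha and gamma clusters each gene has its own large first exon, with its own promoter, which encodes the whole extracellular part of the protein. That exon is spliced to constant exons at the 3′ end of the cluster, which all members share and which encode a common cytoplasmic end. Beta members are single-exon genes with no constant part. In neurons, each cell uses a few of the promoters, and the proteins recognise their own kind on other cells, by which branches of a neuron tell self from other. The genes at the 3′ end of the alpha and gamma clusters, named with a C, are used more broadly than the others. CTCF and the cohesin ring bring an enhancer to the promoter in use, and DNA methylation marks promoters that are silent.

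The letters around the start sites show what the promoters of each cluster have in common. The most shared run of 8 letters was sought in the RefSeq promoters (GRCh38.p14), which run from 250 bases before to 50 bases after the start, on both strands. Promoters were found for 47 of the 57 members. In alpha the run was ATGTCGCT, found for 9 of 13 members and for 0.282% of the 27305 genes of the promoter table. In beta it was GTGGCGCT, found for 13 of 14 members, with PCDHB1 as the exception, and for 1.38% of all genes. In gamma it was GCCGCTGT, found for 11 of 20 members and for 1.98% of all genes. The runs were chosen as the most shared ones, in alpha and beta as the rarer of 2 tied runs, so these shares describe the choice. All of them contain CGCT, the core of the element by which promoters of these clusters are known. Shown are 48 bases around the run for members that are high or that differed most between the genotypes, all on the plus strand, with the run in capitals.
PCDHA4 (chr5:140806971-140807018): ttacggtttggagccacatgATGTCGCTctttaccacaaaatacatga
PCDHA6 (chr5:140827889-140827936): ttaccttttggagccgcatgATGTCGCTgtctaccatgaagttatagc
PCDHA10 (chr5:140855833-140855880): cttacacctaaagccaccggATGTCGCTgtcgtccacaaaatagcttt
PCDHA12 (chr5:140875236-140875283): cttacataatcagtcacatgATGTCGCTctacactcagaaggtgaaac
PCDHB2 (chr5:141094536-141094583): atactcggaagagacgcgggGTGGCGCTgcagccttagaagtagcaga
PCDHB5 (chr5:141135171-141135218): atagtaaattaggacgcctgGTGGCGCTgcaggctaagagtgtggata
PCDHB9 (chr5:141187066-141187113): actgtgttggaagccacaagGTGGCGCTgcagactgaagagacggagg
PCDHB15 (chr5:141245306-141245353): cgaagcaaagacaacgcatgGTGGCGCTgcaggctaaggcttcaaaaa
PCDHGB6 (chr5:141407918-141407965): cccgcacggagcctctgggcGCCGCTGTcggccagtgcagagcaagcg
PCDHGA10 (chr5:141412925-141412972): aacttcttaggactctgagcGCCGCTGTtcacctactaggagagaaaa
PCDHGC3 (chr5:141475874-141475921): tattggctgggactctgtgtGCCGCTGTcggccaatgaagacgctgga
PCDHGC4 (chr5:141484946-141484993): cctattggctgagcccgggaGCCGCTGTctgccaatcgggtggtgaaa

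In alpha the run lay between 85 and 42 bases before the start and in beta between 83 bases and 1 base before it. In gamma it lay between 222 and 42 bases before it, but the widest distances come from genes with a second start. The run of PCDHGB1 lay at -60 from its first start and at -222 from its second. That of PCDHGC4 lay at -64 and -208. Counted from first starts alone, the farthest gamma run was that of PCDHGA1, at -97. Members were shown because they hold the run, so its presence in them says nothing of their direction. The run of the cluster was not found in the windows of 4 alpha members (PCDHA9, PCDHA11, PCDHAC1 and PCDHAC2) or of 9 gamma members, PCDHGB7 among them, which says only that these letters are not in those windows. The whole promoter is shown for PCDHB5 and PCDHA6, the beta and the alpha member with the widest differences between the genotypes, with the same run in capitals.
PCDHB5 (chr5:141134956-141135255, plus strand): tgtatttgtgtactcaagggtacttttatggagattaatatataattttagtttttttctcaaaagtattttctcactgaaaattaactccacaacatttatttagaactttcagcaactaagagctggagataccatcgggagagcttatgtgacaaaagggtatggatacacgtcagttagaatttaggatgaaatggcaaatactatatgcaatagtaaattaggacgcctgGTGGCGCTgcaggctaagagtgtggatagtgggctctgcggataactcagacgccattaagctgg
PCDHA6 (chr5:140827710-140828009, plus strand): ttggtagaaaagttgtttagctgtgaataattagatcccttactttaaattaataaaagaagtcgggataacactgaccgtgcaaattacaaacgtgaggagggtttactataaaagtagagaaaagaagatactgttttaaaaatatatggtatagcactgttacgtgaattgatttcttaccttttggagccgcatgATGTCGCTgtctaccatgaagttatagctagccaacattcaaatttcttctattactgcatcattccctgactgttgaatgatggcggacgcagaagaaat

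Beta members have no shared exons, so their counts can be read gene by gene except where members share sequence. The share of stretches of 50 bases that also occur in another member ran from 0% in PCDHB1 to 45.8% in PCDHB8. It was 20.3% in PCDHB2, 12.4% in PCDHB5, 11.1% in PCDHB15, 11.4% in PCDHB16 and 23.6% in PCDHB13. Of 19 members 16 had enough counts to test, and in the knockout-labelled libraries 3 were called higher (PCDHB2, PCDHB5 and PCDHB15), 3 lower (PCDHB9, PCDHB10 and PCDHB16) and 10 not at all. A call is an adjusted p under 0.05 in edgeR's quasi-likelihood test over all 15643 genes tested, of which 21.9% were called higher, 22.3% lower and 44.2% in either direction. The median log2 fold change was -0.19 over the tested beta members and 0.00 over all genes. In bulk RNA, fewer cells expressing a gene and less RNA per cell cannot be told apart.

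PCDHB5 (chromosome 5, 140514788 to 140517709, plus strand, hg19) differed most within the beta cluster. It stood at 2.29 and 2.49 CPM in the WT libraries and at 16.0 and 16.2 CPM in the knockout-labelled ones. Its level was 6.73-fold higher, a log2 fold change of 2.75 (SE 0.16), and the genotypes did not overlap. Over all genes tested, 73.1% showed no overlap between the genotypes, 36.6% with the knockout-labelled libraries higher and 36.6% with them lower, so that lack of overlap alone says little. PCDHB15 (140624917 to 140627801), the last beta gene, was at 4.86 and 4.36 CPM in WT, against 11.7 and 10.7 CPM in the knockout-labelled libraries, 2.43-fold higher. PCDHB2 (140474191 to 140476964), the member with the highest level, was at 54.9 and 53.8 CPM against 61.7 and 67.1 CPM, a log2 fold change of 0.24 (SE 0.07). The PCDHB2 libraries did not overlap between genotypes, but without the second WT library the adjusted p was 0.0551 in edgeR, and without the second knockout-labelled library it was 0.0740.

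The lower beta members sit next to one another in the middle of the cluster. PCDHB16 (140561265 to 140565796), PCDHB9 (140566701 to 140571111) and PCDHB10 (140571952 to 140575213) are neighbours. PCDHB9 was at 15.5 and 13.1 CPM in WT, against 8.14 and 7.99 CPM in the knockout-labelled libraries, a log2 fold change of -0.82 (SE 0.14). PCDHB10 was at 11.8 and 13.1 CPM against 8.01 and 7.83 CPM, a log2 fold change of -0.65 (SE 0.13), again with no overlap. PCDHB16 was at 20.9 and 25.8 CPM against 17.0 and 19.4 CPM. Its groups did not overlap, but the call was lost without the second WT library (adjusted p = 0.277 in edgeR), without the first knockout-labelled library (0.160) and with DESeq2 (0.0844). PCDHB9 and PCDHB10 share sequence: 21.0% of the stretches of 50 bases in PCDHB9, and 35.4% of those in PCDHB10, also occur in another member, most often in each other. The sources used here do not say how the counting split such reads.

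Among beta members that were not called, PCDHB13 was at 3.63 and 4.42 CPM in WT against 4.79 and 5.84 CPM, and PCDHB7 at 2.24 and 2.13 CPM against 1.64 and 1.31 CPM. In both the genotypes did not overlap. PCDHB14 was at 9.58 and 9.49 CPM against 8.60 and 7.49 CPM. PCDHB1, PCDHB17 and PCDHB18 had too few counts to test, and PCDHB1, the first beta gene, stayed between 0.0512 and 0.137 CPM, at or under 3 counts in each library.

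**Figure D1:**
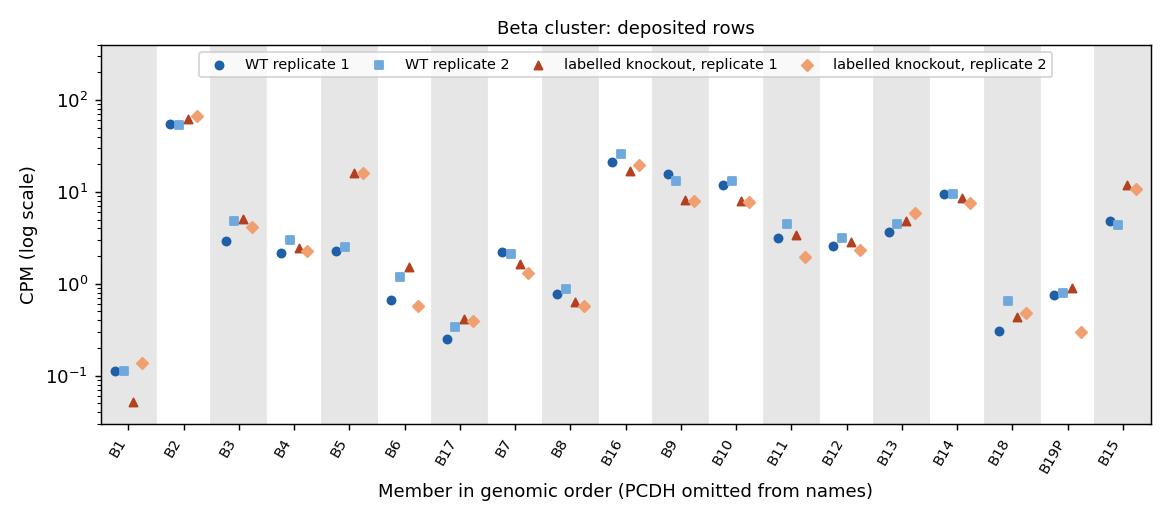
Levels of the 19 beta members in genome order, in CPM on a log axis, with 1 point per library (2 WT, 2 labelled knockout). PCDHB2 lies above all others in all 4 libraries, and PCDHB5 shows the widest gap between the genotypes, from 2.29 and 2.49 to 16.0 and 16.2 CPM.

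Per kilobase of row length, the scale on which genes can be compared, PCDHB2 led in both genotypes, with 19.6 ± 0.287 CPM per kb (SD, n = 2) in WT and 23.2 ± 1.36 in the knockout-labelled libraries. In WT it was followed by PCDHB16 (5.15 ± 0.766), PCDHB10 (3.81 ± 0.282), PCDHB9 (3.24 ± 0.379) and PCDHB14 (2.41 ± 0.0165). Neighbours among PCDHB16, PCDHB10 and PCDHB9 were close: the higher PCDHB9 library (3.50) lay near the lower PCDHB10 library (3.61). In the knockout-labelled libraries PCDHB5 moved from rank 11 to rank 2, at 5.51 ± 0.0531 CPM per kb, ahead of PCDHB16 (4.03 ± 0.374) and PCDHB15 (3.89 ± 0.258). PCDHB2 held 47.1% and 43.8% of the cluster per kb in WT, against 45.4% and 48.6% in the knockout-labelled libraries. PCDHB5 held 1.86% and 1.93%, against 11.2% in each knockout-labelled library. The counts of all beta members added up to 139 and 148 CPM in WT, against 155 and 157 CPM in the knockout-labelled libraries. Without PCDHB2 they added up to 89.3 ± 6.85 CPM in WT and 91.8 ± 2.57 CPM, with overlap between the genotypes.

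The rows of the alpha and gamma clusters need another reading, because they overlap. In the GENCODE v29 annotation all 15 alpha genes and the 22 gamma genes whose rows run to the common 3′ end have 4 exons, with the same exon 2 (59 bp), the same exon 3 (89 bp) and the same start of exon 4. In alpha the lowest row held 96.7% to 97.3% of the median row of the same library, and in gamma the lowest held 99.6% to 99.8%. Nearly all counts of a typical row were thus common to the whole cluster. The common part was taken as the lowest row of the cluster in each library, and each gene's own part as its count above that row. The annotation also lists transcripts of the first exon alone for all 15 alpha and all 22 gamma genes.

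**Figure D2:**
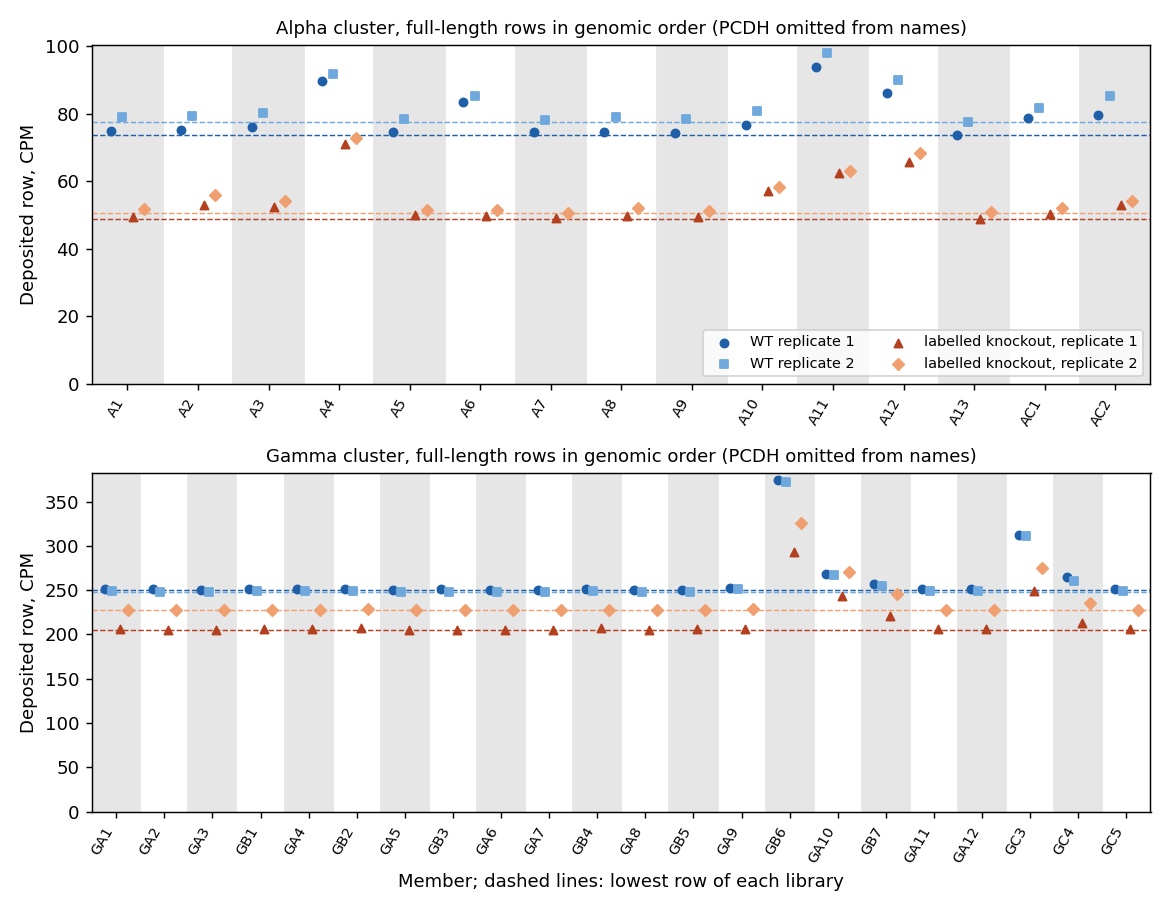
Deposited rows of the alpha (15) and gamma (22) members in genome order, in CPM, 1 point per library, with dashed lines at the lowest row of each library. Most rows of a cluster lie on one line in each library, the common part, and the members that rise above it are those with counts of their own.

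Read as deposited, all 15 alpha rows were called lower in the knockout-labelled libraries (0 higher), with log2 fold changes between -0.74 and -0.33 and a median of -0.60. Of the 22 tested gamma rows 20 were called lower and 0 higher, with a median of -0.21. The exceptions were PCDHGA10 (log2 fold change -0.06, SE 0.06) and PCDHGB7 (-0.13, SE 0.06). The gamma count rests on single libraries: without the first WT library 4 rows were called lower, and without the first knockout-labelled library 2. These rows are not separate measurements, since they hold the same common counts. The gamma row PCDHGB8P, a pseudogene that ends before the constant exons, had 0.140 to 1.05 CPM and was not tested.

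The common part of alpha stood at 73.7 and 77.6 CPM in WT, against 48.7 and 50.6 CPM in the knockout-labelled libraries, 75.6 ± 2.81 against 49.7 ± 1.37 (SD, n = 2). The genotypes did not overlap. The own parts of all alpha genes added up to 80.2 and 78.3 CPM in WT, against 79.6 and 77.9 CPM in the knockout-labelled libraries, a ratio of 0.994. Per kilobase, with the median length of 2866 bp for the shared exons, the ratio of own to common counts in alpha was 1.19 and 1.09 in WT, against 1.85 and 1.75 in the knockout-labelled libraries. In gamma the common part stood at 250.4 and 248 CPM against 205 and 227 CPM. The own parts of gamma added up to 234 and 240.5 CPM against 205 and 226 CPM, and the ratio of own to common counts per kilobase was 0.829 and 0.860 in WT against 0.883 and 0.880. The own-to-common ratio did not overlap between genotypes in either cluster, and its difference was wider in alpha.

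With the common part taken off, the alpha genes went in different directions. Among 15 genes 4 were called higher (PCDHA2, PCDHA4, PCDHA10 and PCDHA12), 5 lower (PCDHA6, PCDHA7, PCDHA11, PCDHAC1 and PCDHAC2) and 5 not called, and PCDHA13, the lowest row in 3 of the libraries, was not tested. In this fit of the whole table, 21.9% of 15635 genes were called higher, 22.3% lower and 44.2% in either direction. In all 4 higher genes the direction was the reverse of that of the deposited row. Those rows had log2 fold changes of -0.50 (PCDHA2), -0.33 (PCDHA4), -0.45 (PCDHA10) and -0.40 (PCDHA12). PCDHA3 and PCDHA5, which were not called, reversed as well, from -0.55 and -0.59 to 0.54 and 0.60. PCDHA2, PCDHA3, PCDHA5 and PCDHA7 were outside the rule for named genes and were singled out after their values were seen.

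PCDHA6 (row 140207507 to 140391929, hg19) differed most. Its own part was 9.72 and 7.68 CPM in WT, against 0.819 and 0.710 CPM in the knockout-labelled libraries, 11.4-fold lower (log2 fold change -3.48, SE 0.24). Both libraries of each genotype lay close together on this scale. In its first exon 33.2% of the stretches of 50 bases occur in another member, most often in PCDHA8, whose own part was 0.950 and 1.45 CPM in WT against 0.947 and 1.40 CPM. PCDHA6 went from rank 4 of the cluster per kb in WT to rank 12.

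PCDHA11 (row start 140247098), among the highest in WT, had an own part of 20.1 and 20.3 CPM in WT, against 13.6 and 12.3 CPM in the knockout-labelled libraries (log2 fold change -0.64, SE 0.11). The C-type genes at the 3′ end of the cluster were lower too. PCDHAC1 (row start 140306302) was at 4.89 and 3.97 CPM in WT against 1.66 and 1.35 CPM, 2.94-fold lower. PCDHAC2 (row start 140345747) was at 5.81 and 7.62 CPM against 4.20 and 3.41 CPM (log2 fold change -0.83, SE 0.20), and its call was lost without the second WT library (adjusted p = 0.0514 in edgeR). PCDHA7 was near the floor, with 13.5 and 9.5 counts of its own in WT against 4.5 and 0 counts. In the second knockout-labelled library PCDHA7 was itself the lowest alpha row, so the subtraction set that 0. Its call was lost without the second knockout-labelled library (adjusted p = 0.123 in edgeR) and with DESeq2 (0.0761). Without the first WT library, or with counts not rounded, it had too few counts to be tested. In its first exon 32.3% of the stretches of 50 bases occur in another member, most often in PCDHA9.

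The higher alpha genes lie among the lower ones. PCDHA4 (row start 140186659) had an own part of 16.1 and 14.0 CPM in WT, against 22.4 and 22.0 CPM in the knockout-labelled libraries (log2 fold change 0.56, SE 0.11). PCDHA10 (row start 140235468) was at 3.02 and 3.20 CPM against 8.29 and 7.60 CPM, 2.56-fold higher. PCDHA12 (row start 140254887) was at 12.5 and 12.4 CPM against 16.9 and 17.6 CPM. PCDHA2 (row start 140174444) was at 1.34 and 1.67 CPM against 4.35 and 5.38 CPM, 3.23-fold higher. In these 4 genes the genotypes did not overlap, as in 36.6% of all genes of this fit in that direction and 36.4% in the other. PCDHA3, which was not called, was at 2.24 and 2.61 CPM against 3.66 and 3.41 CPM and also without overlap.

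**Figure D3:**
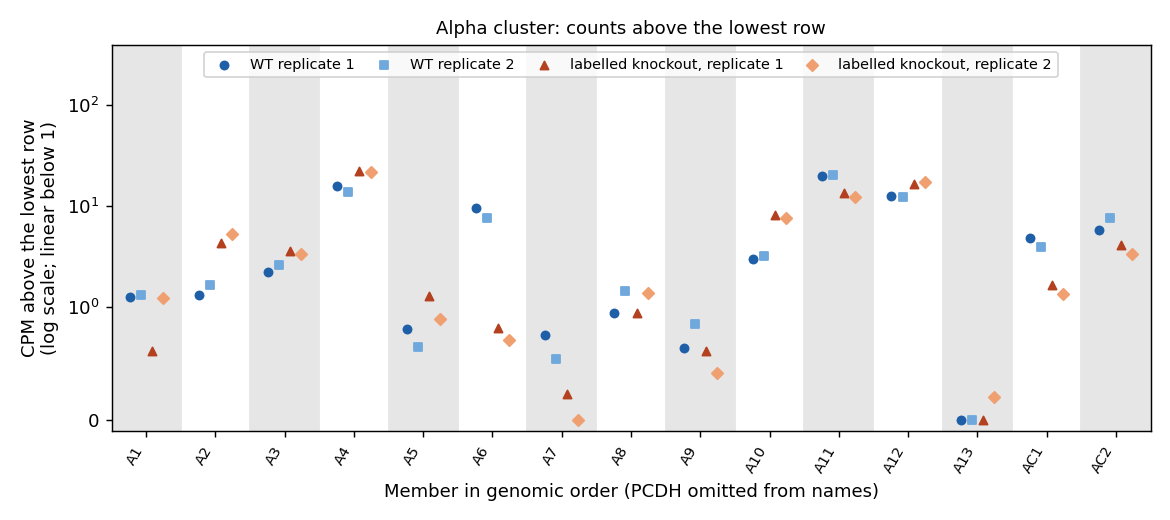
Own part of each alpha gene (count above the lowest row of the cluster), in CPM (log axis, linear under 1 CPM), in genome order, 1 point per library. PCDHA4, PCDHA10 and PCDHA12 lie higher and PCDHA6, PCDHA11, PCDHAC1 and PCDHAC2 lower in the knockout-labelled libraries.

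Each gene's part of the cluster per kilobase of first exon shows how the cluster's make-up differed. In WT, PCDHA4, PCDHA11 and PCDHA12 together held 59.2% of the alpha cluster, with means of 21.0%, 20.7% and 17.5%. In the knockout-labelled libraries the same genes held 66.1%, with PCDHA4 at 29.9%, PCDHA12 at 23.3% and PCDHA11 at 12.8%. PCDHA6 held 12.7% and 10.4% in WT, against 1.04% and 0.915% in the knockout-labelled libraries. PCDHA10 held 4.14% and 4.54% against 11.1% and 10.3%. In WT the first 2 places were not apart: PCDHA4 held 22.1% and 19.9%, and PCDHA11 20.3% and 21.2%. That order depends on the division by length, as the first exon has 2385 bp in PCDHA4 and 3249 bp in PCDHA11. Not divided by length, the own part of PCDHA11 in WT (20.1 and 20.3 CPM) lay above that of PCDHA4 (16.1 and 14.0 CPM).

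In gamma, 3 genes were called higher by their own part (PCDHGB5, PCDHGA10 and PCDHGB7), 4 lower (PCDHGA9, PCDHGB6, PCDHGC3 and PCDHGC4), 8 were not called and 7 had too few counts to test. The 7 calls among 15 tested genes are close to the 44.2% called over all genes of the same fit. PCDHGB6 (row 140787770 to 140892546), the gene with the highest own part, was at 124 CPM in both WT libraries and at 88.3 and 99.04 CPM in the knockout-labelled ones (log2 fold change -0.40, SE 0.06). PCDHGA10 (row start 140792743), the next gene along the chromosome, was at 17.4 and 19.6 CPM against 38.3 and 43.1 CPM, 2.19-fold higher (log2 fold change 1.14, SE 0.09). PCDHGB7 (row start 140797260), the gene after it, was at 6.15 and 6.49 CPM against 15.2 and 18.3 CPM, 2.65-fold higher. These neighbours thus lay on opposite sides of 0, with no overlap between the genotypes, as for 73.1% of all genes tested in this fit.

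The C-type gamma genes were lower or not called. PCDHGC3 (row start 140855569), the second highest of the cluster, was at 62.3 and 63.7 CPM in WT, against 43.9 and 47.6 CPM in the knockout-labelled libraries (log2 fold change -0.46, SE 0.07). PCDHGC4 (row start 140864741) was at 13.9 and 12.2 CPM against 7.29 and 8.56 CPM (log2 fold change -0.71, SE 0.14). PCDHGC5 (row start 140868808) was at 1.06 and 1.59 CPM against 0.972 and 0.824 CPM and was not called. Of the 5 C-type genes of both clusters, 4 were called lower by their own part and 0 higher, where 22.3% of all genes were lower and 21.9% higher. Without the second WT library PCDHAC2 was not called, as given above, which leaves 3. PCDHGC3 and PCDHGC4 share no stretch of 50 bases with another member.

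Further gamma genes had low own parts. PCDHGB5 and PCDHGA9 were singled out after their values were seen. In the first exon of PCDHGB5, 20.4% of the stretches of 50 bases occur in another member, most often in PCDHGB4. PCDHGB5 was at 0.140 and 0.0850 CPM in WT against 0.563 and 0.664 CPM. Its call was lost with DESeq2 (adjusted p = 0.117) and, in edgeR, without the first WT library (0.0678), the second WT library (0.0618) or the second knockout-labelled library (0.0856). PCDHGA9 was at 2.01 and 3.91 CPM against 0.947 and 1.47 CPM, and its call was lost without the second WT library (log2 fold change -0.74, adjusted p = 0.161 in edgeR) or the first knockout-labelled library (0.0977). PCDHGB2, at 1.26 and 1.56 CPM against 1.84 and 1.83 CPM, was not called by its own part.

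**Figure D4:**
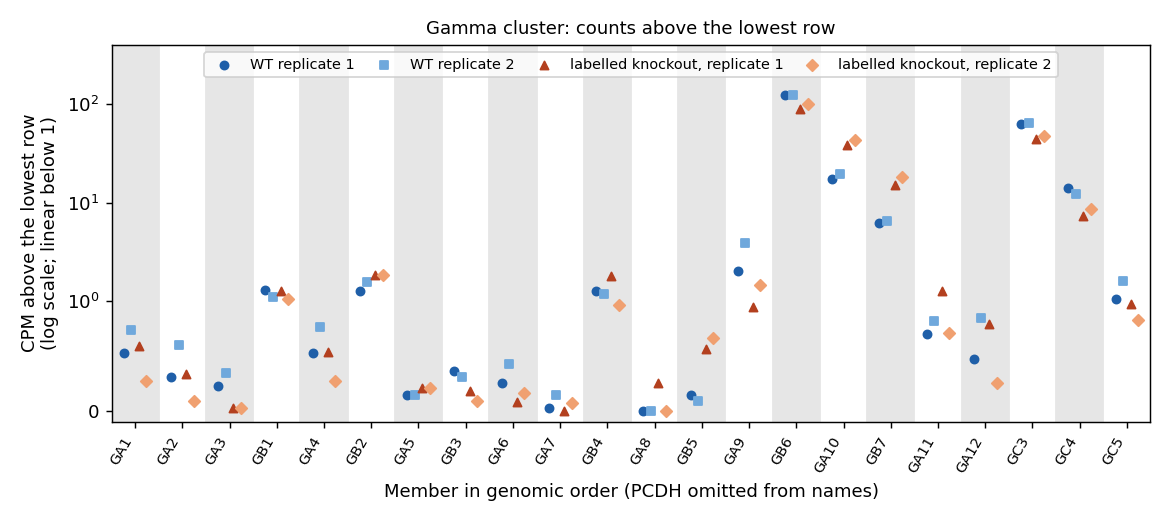
Own part of each gamma gene (count above the lowest row of the cluster), in CPM (log axis, linear under 1 CPM), in genome order, 1 point per library. PCDHGB6 and PCDHGC3 are highest in all 4 libraries, and the neighbours PCDHGA10 and PCDHGB7 lie higher in the knockout-labelled libraries.

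Per kilobase of first exon, PCDHGB6, PCDHGC3 and PCDHGA10 together held 86.7% of the gamma cluster in WT and 84.0% in the knockout-labelled libraries. PCDHGB6 held 53.8% and 52.4% in WT, against 43.9% and 44.7% in the knockout-labelled libraries, and PCDHGC3 held 25.7% and 25.6% against 20.8% and 20.4%. PCDHGA10 held 7.52% and 8.25% against 18.9% and 19.3%. The order of the first 3 genes was the same in both genotypes, and PCDHGB7 and PCDHGC4 changed places behind them. An own part of at least 1 CPM in either genotype was reached by 12 of 15 alpha and 10 of 22 gamma genes, and one of at least 5 CPM by 6 and 5.

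**Figure D5:**
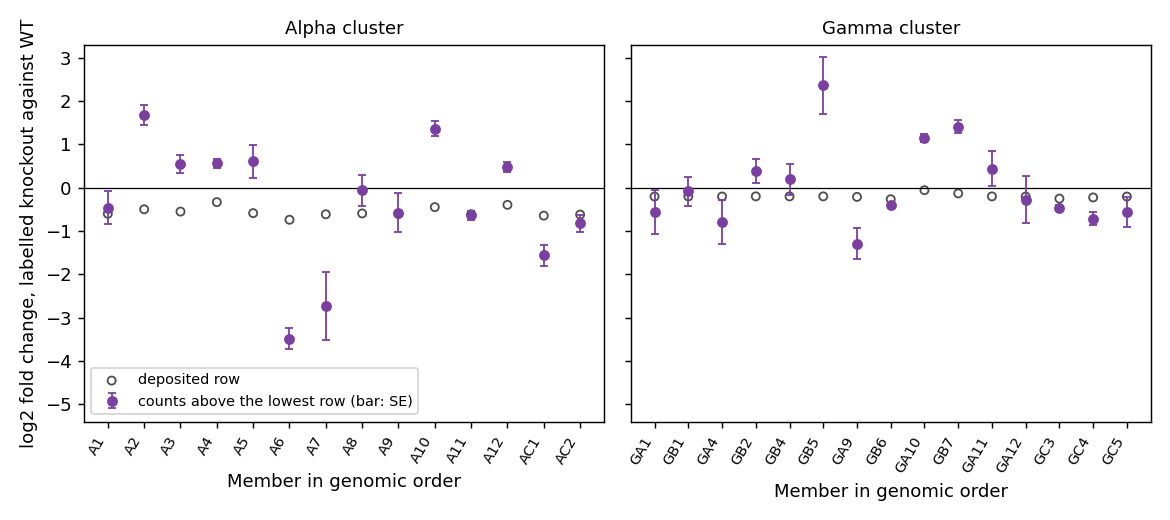
Log2 fold change (libraries labelled knockout over WT) of the members in genome order, with bars for 1 standard error, for the tested own parts of alpha and gamma, and open circles for the deposited rows. The deposited rows lie under 0, from -0.74 to -0.33 in alpha and from -0.27 to -0.06 in gamma. The own parts spread on both sides of 0.

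Genes known to act on these promoters were measured as a list, of which 29 symbols were in the table and 27 were tested. Among them 15 were called higher in the knockout-labelled libraries and 0 lower, where 21.9% of all genes tested were higher and 22.3% lower, and the median log2 fold change was 0.18. STAG2, a cohesin subunit, was at 86.6 and 79.9 CPM in WT, against 198 and 179 CPM in the knockout-labelled libraries (log2 fold change 1.18, SE 0.06, adjusted p = 2.53e-09 in edgeR). SMC3, another cohesin subunit, rose from 50.1 ± 3.06 to 80.0 ± 2.82 CPM, and SMCHD1, a chromatin protein that silences clustered protocadherins, from 63.6 ± 4.01 to 95.4 ± 7.96 CPM. CTCF was at 162 ± 0.459 CPM against 176 ± 8.73 CPM and did not pass the test (adjusted p = 0.0812).

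Of 24 tested genes for proteins that bind or cut clustered protocadherins, 7 were called higher and 7 lower. Over all genes tested, 21.9% were called higher, 22.3% lower and 44.2% in either direction, so these counts lie above the share in each direction, by few genes. CDH2, the classical cadherin of neural epithelium, rose from 111 ± 1.37 to 256 ± 11.7 CPM. NLGN1, a synaptic adhesion protein, fell from 15.0 ± 0.824 to 6.74 ± 1.33 CPM, and PSEN2, a subunit of the gamma-secretase that cuts these proteins, rose from 16.8 ± 1.17 to 25.5 ± 1.98 CPM. Protocadherins outside the clusters moved both ways, with 6 of 13 called higher and 6 lower, in each direction above the share over all genes. PCDH20 was at 46.7 and 52.9 CPM in WT, against 9.16 and 9.21 CPM in the knockout-labelled libraries (adjusted p = 1.07e-10 in edgeR). PCDH15 rose from 0.337 ± 0.156 to 1.54 ± 0.394 CPM. CDHR1 was under 3 counts in each WT library, at 0.0559 and 0.0567 CPM, against 0.717 and 0.550 CPM.

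The genes next to the clusters were measured as well. Of the 10 rows upstream, 6 were tested and 2 (HARS2 and ZMAT2) were called lower, with log2 fold changes of -0.19 and -0.24. TAF7, between the beta and gamma clusters, was at 139.5 ± 3.62 CPM in WT against 138 ± 8.99 CPM and was not called. Of the 10 rows downstream, 8 were tested, PCDH12 was called higher, and ARAP3 and PCDH1 were called lower. PCDH1 and PCDH12 are also on the list of protocadherins outside the clusters. For comparison, 44.2% of all genes tested were called in either direction.

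Markers of other cell types were counted beside the shares over all genes tested, 21.9% called higher and 22.3% lower. Summed over 7 neural progenitor markers, levels were 129.7 and 131 CPM in WT, against 337 and 297 CPM in the knockout-labelled libraries, and all 6 tested were called higher. CDH2, which is also on the list of partners, made up 110.3 and 112 CPM of that sum in WT and 264 and 248 CPM in the knockout-labelled libraries. HES5 was at or under 3 counts in each library. Summed over 12 neuron markers, levels were 513 and 517 CPM against 595 and 642 CPM, with 5 of 10 tested called higher and 0 lower. Most of that sum was DCX, which was not called, at 491 and 499 CPM against 509 and 546 CPM. NEFM rose from 1.14 ± 0.128 to 35.3 ± 3.50 CPM and NEFL from 1.27 ± 0.410 to 27.4 ± 2.72 CPM, but the neuron genes STMN2 and ELAVL4 stayed under 0.5 CPM in each library. Summed over 11 markers of non-neural ectoderm, the labelled tissue, levels were 2867 and 3131 CPM in WT against 2216 and 2126 CPM, with 7 called lower. The largest part of that sum was KRT8, at 1293 and 1334 CPM against 1049 and 1061 CPM. Neural crest markers, 6 in all, added up to 277 and 299.8 CPM in WT against 58.5 and 53.7 CPM, with 2 of 3 tested called lower. Nearly all of it was TFAP2B, an AP-2 gene itself, at 261 and 287 CPM against 45.7 and 40.5 CPM. SNAI2 was at 10.95 and 9.32 CPM against 11.95 and 12.7 CPM and was not called, and SOX10, FOXD3 and PAX3 were at most 0.205 CPM. The 8 mesenchyme markers added up to 11338 and 11704 CPM against 9250 and 10652 CPM, with 4 called lower and 1 higher. Most of that sum was COL3A1, called lower at 6243 and 6570 CPM against 4679 and 5615 CPM, and COL1A1. COL1A1 was not called, at 3083 and 3104 CPM against 2698 and 3064 CPM. The 5 pluripotent markers added up to 612 and 670 CPM in WT against 476 and 412 CPM, with 1 of 3 tested called lower. Most of that sum was LIN28A, called lower at 539 and 591 CPM against 397 and 342 CPM. POU5F1 was at 0.866 and 0.567 CPM against 0.640 and 0.870 CPM and was not called. The part of these cell types in the protocadherin differences was not tested.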

How the data were processed

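Gene-level RNA-seq was analysed in 4 libraries of H9 cells at day 7, with groups taken from the genotype label. The authors deposited 1 table of estimated counts per gene, whose values were multiples of 0.5 (37.0% not whole) and were rounded to whole numbers. Per the submitters' processing notes TopHat, HOMER and DESeq2 were used, with build hg38. None of the 57 members began within 2000 bp of its GRCh38 start, so positions are printed as hg19. The annotation, the strand setting and the rule for reads of shared exons are not stated in those sources.

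All genes were fitted with edgeR 4.0.16 (filterByExpr, TMM, robust glmQLFit and glmQLFTest, Benjamini-Hochberg adjustment, threshold 0.05) in R 4.3.3 with limma 3.58.1, and with DESeq2 1.42.0 as an alternative. The fit was also run on simulated counts drawn with its own fitted dispersions, which that run cannot check, and its outcome is not reported here. In alpha and gamma, the lowest full-length row of a cluster was subtracted in each library and the whole table refitted. The table gives no gene lengths, so row spans (beta) and GENCODE v29 first exons (alpha, gamma) were used, where a deposited length had been planned. No protein sequences were compared. The main fit did not pair the libraries by replicate number. The labels do not say whether these numbers pair them, and the correlation of replicate deviations (-0.046) cannot show how they were prepared.

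Named members were the 5 with the highest mean, the 3 highest and 3 lowest log2 fold changes among tested rows of each cluster, and all C-type genes. From other lists, up to 3 genes with the largest change were named. PCDHA2, PCDHA3, PCDHA5, PCDHA7, PCDHA8, PCDHB1, PCDHB14, PCDHGA9 and PCDHGB5 were named in addition, after their values were seen. The same holds for CTCF, TAF7, the marker genes and the neighbours. The members and lists were chosen with earlier results of these data known.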

Additional observations from a re-analysis of the deposited data

How the results depend on the processing

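Each count of calls was recomputed with other scaling, filters, rounding, DESeq2, a replicate block and each library left out. With the replicate number as a block, 3050 genes were called higher and 3154 lower, and the block changed no count of members. With the common part taken off, the count of alpha members called went from 0 to 4 higher and from 15 to 5 lower. That of gamma members went from 0 to 3 higher and from 20 to 4 lower. This alternative measures the own parts in place of whole rows, so it is not a check of the same quantity. Leaving out 1 library gave 2 to 21 gamma rows called lower. Among members named by the rule, taking off the common part reversed the log2 fold changes of PCDHA4 (0.56), PCDHA12 (0.47), PCDHA10 (1.36), PCDHGA10 (1.14), PCDHGB7 (1.41) and PCDHGB2 (0.38, not called). Members outside the rule reversed too, among them PCDHA2 (1.68) and PCDHGB5 (2.36). Leaving out 1 library gave a log2 fold change of -0.13 to 0.016 for the deposited PCDHGA10 row. The summed beta level without PCDHB2 was 89.3 CPM in WT and 91.8 CPM in the libraries labelled knockout. With the common part off, counts of members called were within 1.5 times the main count under all 11 alternatives, which for these results were chosen after seeing the data. Depth limits the low gamma genes, whose own part lies near 3 counts.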
